A study of Mus musculus with 28 samples.

Results

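The genes described here are 37 mouse genes of the pluripotency network and of early exit from pluripotency, taken as a named list out of 21755 protein-coding genes on chromosomes 1 to 19 and X. They fall into 13 transcription factors of the network, 2 genes of the LIF signal and 9 other genes associated with pluripotent cells. A further 5 are genes of DNA methylation and the Polycomb repressive complex PRC2, and 8 are grouped here under early exit. The list names genes by role and no measured value enters the rule, but it was chosen with earlier results of these data known. What was asked of each gene is whether its start and body lay within broad domains of H3K9me2, and how far away the nearest domain was, when the methyltransferase EHMT2 was present and after it had been degraded.

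H3K9me2 is a dimethyl mark on lysine of histone H3 that accompanies gene silencing over broad regions, and EHMT2 (G9a) with its partner EHMT1 is its main writer. The cells were mouse embryonic stem cells (mESCs) of the KH2 line on a BL6/129 hybrid background, in which endogenous EHMT2 carries a degradation tag (EHMT2-dTAG-mCherry), and all cells, controls included, carry this tag and were grown with serum and LIF on feeder fibroblasts. A single clone that also holds a MERVL-GFP reporter was given DMSO or the degrader dTAG-13 for 72 h and then sorted by GFP. Cells without GFP are the mESCs, and those with it are the 2-cell-like cells (2CLCs), a rare totipotent-like population of ES cell cultures. The paper used the compound TTNBP, a retinoic acid receptor agonist, to obtain enough viable 2CLCs for this profiling. The labels name TTNBP for 2 of the replicates without saying which, whereas the methods give no such limit. Replicates with and without it may thus be mixed within each condition. The chromatin was profiled by ULI-NChIP, a native immunoprecipitation for small cell numbers, with 3 immunoprecipitated and 3 input libraries per sorted condition, and 28 libraries in all with the bulk DMSO cells collected at 24 h.

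What is available per condition is 1 list of domains, that is, stretches of the genome where the ratio of immunoprecipitated to input signal passed thresholds set by the authors. The lists are mESC DMSO (4323 domains, median width 140 kb), mESC dTAG (7312, 60 kb), 2CLC DMSO (4246, 115 kb) and 2CLC dTAG (8820, 60 kb). The mESC DMSO list is named only for DMSO and ESC and was taken as the sorted 72 h condition. Another list (6578 domains, 150 kb) has a name that gives neither cell state nor treatment, is called the unnamed set below, and enters no comparison. The paper reports a global fall of H3K9me2 in both cell types on EHMT2 depletion. Domains were called on percentiles of the signal ratio, so a domain found only in dTAG does not by itself show more of the mark. A domain list holds neither a level of the mark nor values per replicate, so no difference below has an error or a test, and counts over the 37 genes stand beside the same counts over all protein-coding genes. The lists hold no expression values either, so the sorted cell states were not checked against marker genes here. Where a pair of values is given for a cell state, the first is DMSO and the second dTAG.

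Mouse ES cells hold pluripotency through a network of transcription factors around OCT4, SOX2 and NANOG, which is stabilised in serum and LIF by LIF receptor signaling through STAT3 and by KLF factors, ESRRB, TFCP2L1 and PRDM14. On exit, these naive factors decline while OTX2, FGF5 and the de novo DNA methyltransferases rise, under the influence of FGF and NODAL signals. Many of these genes are active in ES cells, and G9a is known for taking part in the silencing of Pou5f1 during differentiation.

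The starts of pluripotency and early exit genes were almost absent from H3K9me2 domains. With EHMT2 present, 0 of 37 starts lay in a domain in mESC DMSO, where 22.3% of all protein-coding starts did, and 0 of 37 in 2CLC DMSO, where the share of all starts was 23.2%. After degradation 1 of 37 lay in a domain in mESC dTAG (Zfp42), against 23.6% of all starts, and 2 of 37 in 2CLC dTAG (Zfp42 and Fgf5), against 26.5%. Over the 4 sorted lists, 35 of 37 starts (94.59%) were never in a domain, against 65.83% of all protein-coding starts.

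Gene bodies gave the same picture. In mESC DMSO only Tet2 had any base in a domain, with 0.804% of its body, and the share of all genes with any such base was 27.9%. In mESC dTAG it was only Zfp42 (33.8% of the body), against 30.9% of all genes. No member had a base in a domain in 2CLC DMSO, against 28.4%. In 2CLC dTAG, where 35.3% of all genes had a base in a domain, there were 3 members, namely Zfp42 with its whole body, Epcam with 93.9% and Fgf5 with 8.66%. A body free of domains in all 4 lists was found for 33 of 37 members (89.19%) and for 58.14% of all genes. Member bodies were of ordinary length, with a median of 15.5 kb (1.13 to 192 kb) beside 17.4 kb for all genes.

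The stretch around these genes was also poor in domains. The median distance from a member start to the nearest domain edge, counted as 0 inside a domain, was 449 kb (DMSO) and 253 kb (dTAG) in mESCs, and 520.2 kb and 157 kb in 2CLCs. Over all protein-coding genes the same medians were 171 and 78.2 kb in mESCs and 173 and 50.1 kb in 2CLCs. Among starts outside domains only, the medians were 449, 259, 520.2 and 161 kb for members and 315, 146, 329 and 105 kb for all genes, in the same order. In DMSO no member start came closer to a domain than 31.0 kb in mESCs (Zfp42) or 39.2 kb in 2CLCs (Tet2).

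In the 500 kb centred on the start, no base was in a domain for 23 and 19 members in mESCs and for 26 and 13 in 2CLCs. As shares, these were 62.16%, 51.35%, 70.27% and 35.14% of the members, and 43.27%, 26.27%, 43.73% and 18.59% of all genes. Windows free of domains were thus most frequent around member starts in 2CLC DMSO and least frequent in 2CLC dTAG. The median cover of the window was 0% in the first 3 lists and 8% in 2CLC dTAG for members, and 7%, 13%, 6.91% and 17% for all genes.

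**Figure D1:**
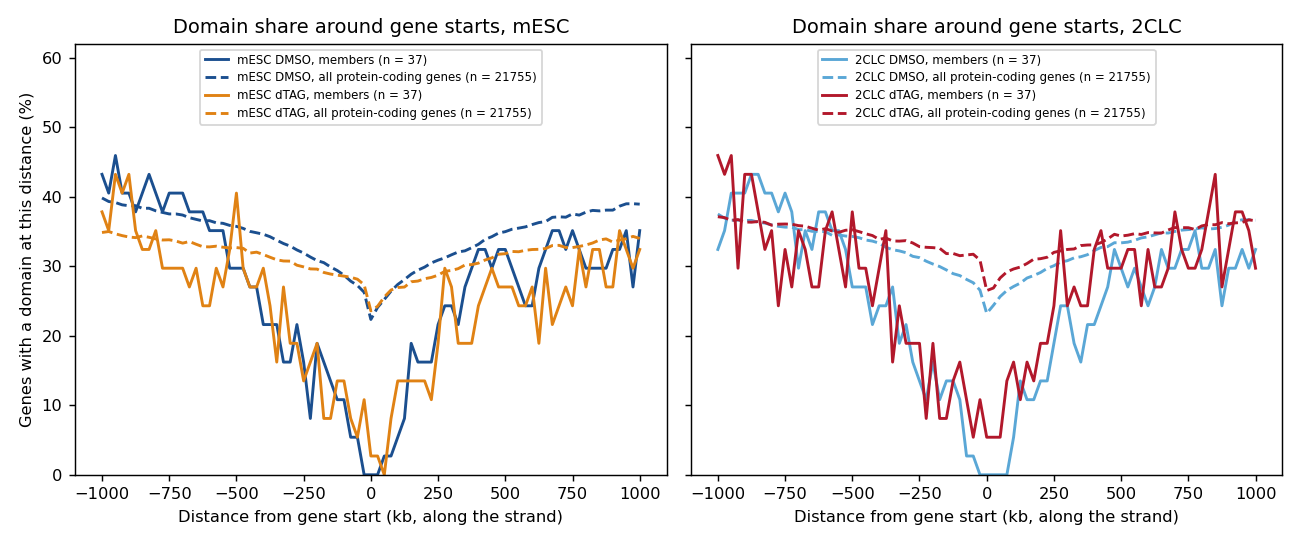
Share of genes with an H3K9me2 domain at each distance from the gene start (x axis, kb along the strand of the gene, 1000 kb to each side in steps of 25 kb; y axis, percent of genes), for mESCs (left) and 2CLCs (right), DMSO and dTAG. Solid lines are the 37 pluripotency and early exit genes and dashed lines all 21755 protein-coding genes. The members fall to 0 at the start in both DMSO lists, against 22.35% and 23.23% of all genes. At 600 kb past the start they stand at 24.32% in mESC DMSO, against 36.01%. That point is a local low, with members at 32.43% at 500 kb and 35.14% at 700 kb.

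Moving away from the start, the profile of domains around gene starts shows how far this low reached. At 250 kb before the start a domain lay over 16.2% of member positions in mESC DMSO and 13.5% in 2CLC DMSO, against 31.9% and 31.3% for all genes. At 1000 kb before the start the members stood at 43.2% in mESC DMSO, above the 39.8% of all genes. In 2CLC DMSO they stood at 32.4%, below 37.5%. At 1000 kb past the start they were lower in both, at 35.1% and 32.4%, against 38.95% and 36.6%. With 37 genes, 1 gene moves a member value by 2.703 percentage points, and neighbouring points share genes.

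The domain-free intervals that held member starts were wide. The 37 starts lay in 34 intervals in each DMSO list, because Lefty1 and Lefty2, Nanog and Dppa3, and Tet1 and Nodal each share an interval. The median interval was 1422 and 820 kb in mESCs and 1930 and 645 kb in 2CLCs, whereas the median over all intervals between domains was 45 and 60 kb, and 50 and 55 kb. The widest belonged to Lin28a, an RNA-binding protein that blocks let-7 maturation, at 10045 kb in mESC DMSO and 13195 kb in 2CLC DMSO, each the widest interval of its list. A wide interval is more likely to hold any given gene, so these medians describe the surroundings of the members and not a contrast between genes.

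**Figure D2:**
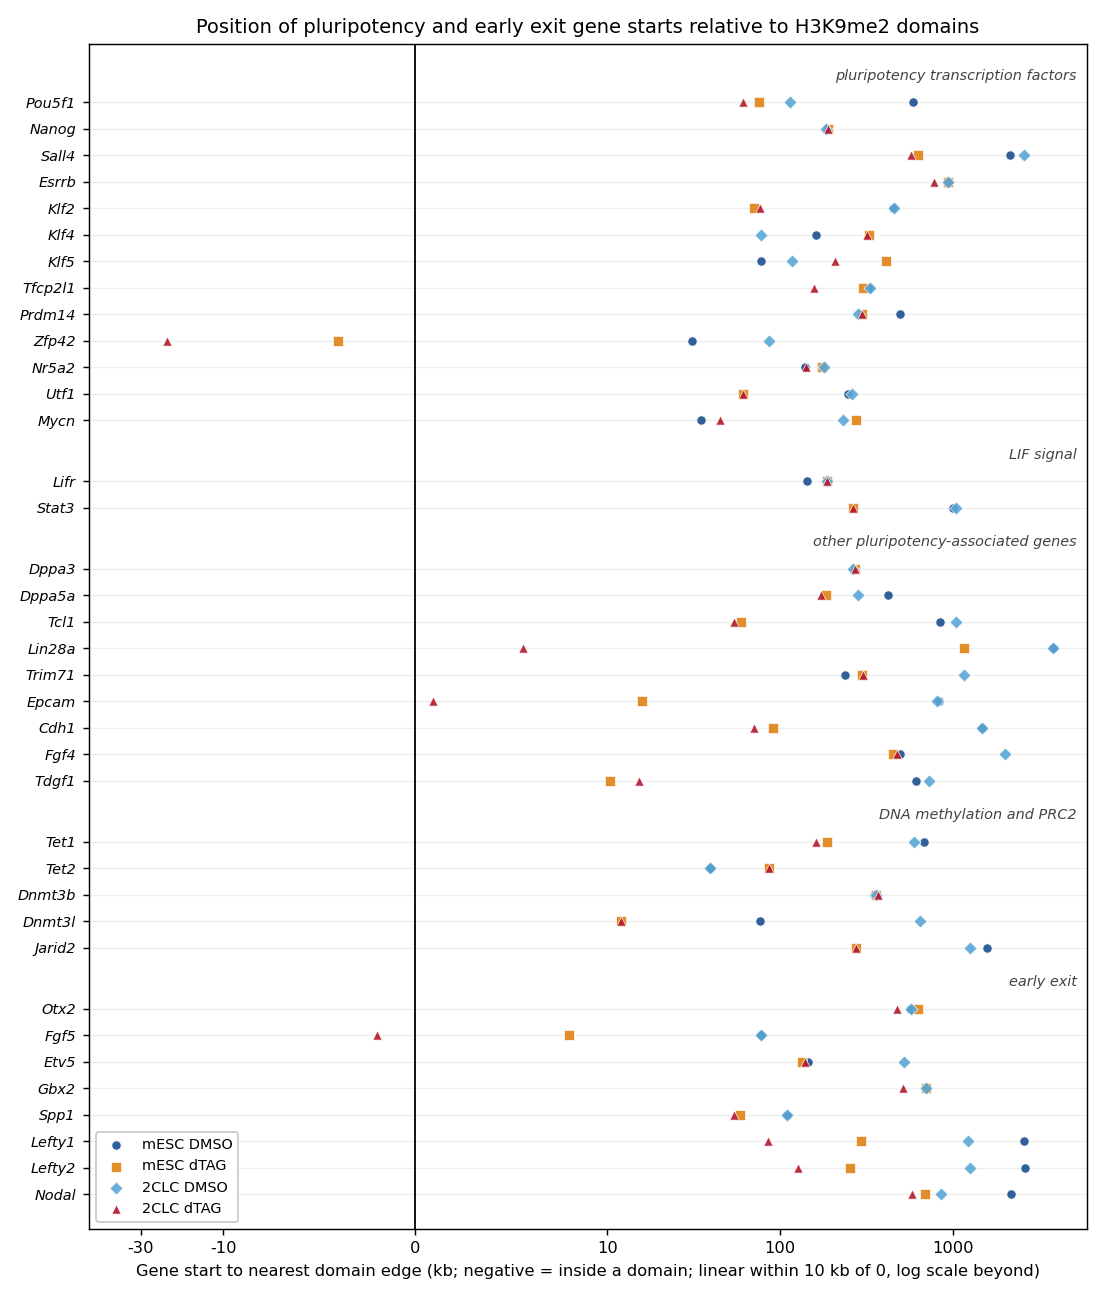
Signed distance from each member start to the nearest H3K9me2 domain edge (x axis, kb, negative inside a domain, linear within 10 kb of 0 and logarithmic beyond) in the 4 sorted lists, with genes ordered by role (y axis). Points left of 0 are Zfp42 in mESC dTAG and 2CLC dTAG and Fgf5 in 2CLC dTAG, and for 27 of the 35 genes outside in both 2CLC lists the dTAG point lies more than 5 kb to the left of the DMSO point.

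From DMSO to dTAG, 1 of 37 starts entered a domain in mESCs, against 6.32% of all protein-coding starts, and 2 of 37 in 2CLCs, against 7.52%. Here and below, background shares for entering are over all genes, including those already in a domain, which could not enter. In DMSO these were 22.3% of all starts in mESCs and 23.2% in 2CLCs, whereas all 37 member starts were outside and could enter. None left in either cell state (background 5.08% and 4.25%), as none was in a domain in DMSO. Far more often the nearest listed domain lay nearer in dTAG without covering the start. Among the 36 starts outside domains in both mESC lists, the nearest domain came nearer by more than 1 bin (5 kb) for 23, moved farther for 9 and stayed within 1 bin for 4. The background for all genes was 63.8% nearer and 19.8% farther, beside 63.89% and 25% of the members. In 2CLCs the counts among 35 starts were 27 nearer, 5 farther and 3 within 1 bin, or 77.14% and 14.29%, beside 72.4% and 12.3% of all genes. The shares of members with a nearer domain were thus close to those of all genes in both cell states.

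These counts rest largely on narrow domains. The nearest dTAG domain shared no base with any DMSO domain of the same cell state for 23 of 36 members in mESCs (63.89%, against 60.97% of all genes) and for 27 of 35 in 2CLCs (77.14%, against 67.97%), with a median width of 35 kb in both. When only domains of at least 50 kb were used, a setting added after the data had been seen, the nearest domain came nearer for 18 and went farther for 17 of 36 members in mESCs, and for 20 and 9 of 35 in 2CLCs. Nearer domains at this setting were thus found for 50% and 57.14% of members, beside 44.09% and 54.07% of all genes. Such domains without a DMSO counterpart were nearest in both cell states for 21 of 35 members (60%, against 51.88% of all genes). For 14 of these 21 (66.67%, against 60.87% of all genes with such domains in both) the mESC and 2CLC domains overlapped each other.

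**Figure D3:**
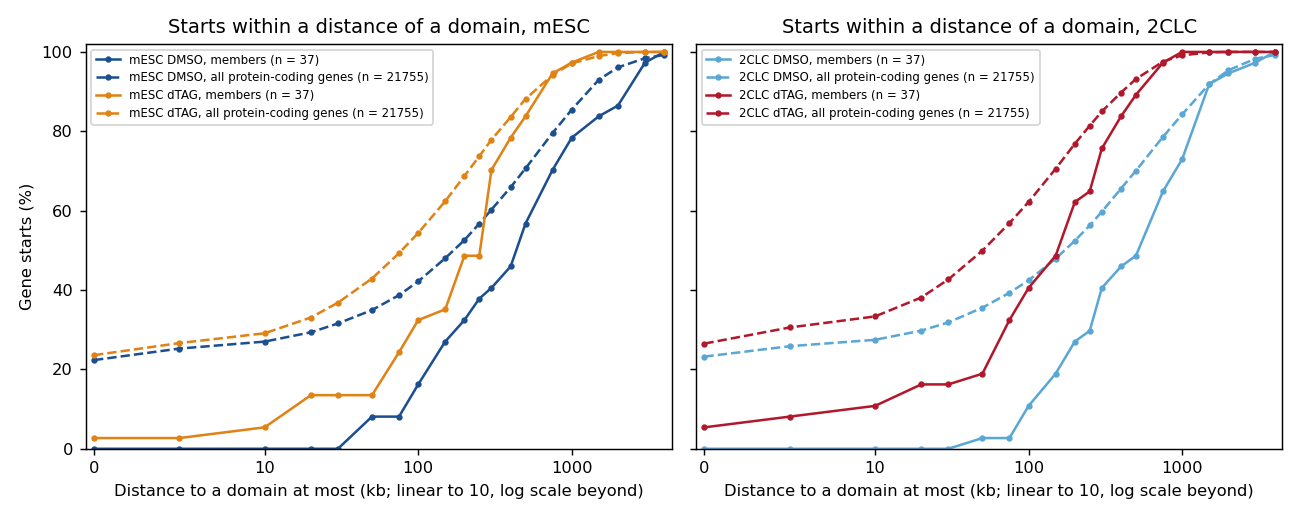
Cumulative share of gene starts (y axis, percent) within a given distance of an H3K9me2 domain (x axis, kb, linear to 10 kb and logarithmic beyond), for mESCs (left) and 2CLCs (right). Solid lines are the 37 members and dashed lines all 21755 protein-coding genes; within 100 kb the members reach 16.22% in DMSO and 32.43% in dTAG in mESCs, and 10.81% and 40.54% in 2CLCs, below the dashed line of the same list.

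The number of members inside a domain or within 100 kb of one was 6 and 12 in mESCs, and 4 and 15 in 2CLCs. Over all genes the corresponding shares were 42.17% and 54.37%, and 42.45% and 62.19%, all above those of the members. The 12 members in mESC dTAG include Zfp42 and 11 outside a domain, and the 15 in 2CLC dTAG include Zfp42, Fgf5 and 13 outside.

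Between cell states with EHMT2 present, no member start entered or left a domain (0 of 37 each; background 3.99% in domains only in 2CLCs and 3.1% only in mESCs). The nearest domain was nearer in 2CLC DMSO than in mESC DMSO for 10 members, farther for 17 and within 1 bin for 10, beside 33.8% nearer and 38.9% farther among all genes. After degradation, 1 start was in a domain in 2CLCs and not in mESCs (Fgf5; background 6.24%) and 0 the other way (background 3.32%). Of the 35 outside in both dTAG lists, 18 had a nearer domain in 2CLCs and 2 a farther one (51.43% and 5.714%, beside 44.2% and 14.6% of all genes), and 15 stayed within 1 bin.

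Zfp42 (Rex1), a zinc finger protein used as a marker of the naive state, had the highest domain cover around its start among the members in mESC DMSO. Its start at 43306980 on chromosome 8 (minus strand, mm10) lay 31.0 kb from a domain in mESC DMSO and 86.0 kb in 2CLC DMSO, in domain-free intervals of 160 and 260 kb. The domain on its upstream side was 1600 kb wide in mESC DMSO and 1545 kb in 2CLC DMSO. So in both controls the gene sat in a gap between wide domains.

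After degradation a separate domain covered the Zfp42 start. In mESC dTAG it was chr8:43302952-43367951, 65 kb wide, with the start at a signed distance of -4.03 kb, negative because it is inside, and 33.8% of the gene body covered. In DMSO, 46.15% of that same stretch already lay in mESC domains. In 2CLC dTAG it was chr8:43227952-43327951, 100 kb wide, with the start at -20.97 kb, the whole body covered and no base in a 2CLC DMSO domain. The cover of the surrounding 500 kb did not move the same way, at 68% and 49% in mESCs, and 48% and 53% in 2CLCs. The start is 1 bin or less from the edge in mESC dTAG, and with every edge moved inwards by 5 kb it lay 0.972 kb outside, while in 2CLC dTAG it stayed inside.

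Fgf5, an FGF ligand that is low in naive cells and marks the epiblast-like cells formed on exit, had the same distance of 78.02 kb in mESC DMSO and 2CLC DMSO. In mESC dTAG the nearest domain was 8.02 kb away, and in 2CLC dTAG the start lay at -1.98 kb inside chr5:98186163-98256162, which is 70 kb wide. Both dTAG domains lay on the upstream side and shared no base with the DMSO domains of their cell state. The 2CLC domain reached 8.66% of the body from the 5′ side, and the domain share of the 500 kb window was 61% in mESC DMSO, 77% in mESC dTAG, and 61% in both 2CLC lists. With edges moved inwards by 5 kb the 2CLC dTAG start was 3.02 kb outside, so this entry depends on less than 1 bin.

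Epcam, an epithelial adhesion molecule at the surface of ES cells, stood far from domains in both controls, at 826 kb in mESC DMSO and 811 kb in 2CLC DMSO. In mESC dTAG a 30 kb domain lay 15.9 kb past the start, just beyond the gene body. In 2CLC dTAG the domain chr17:87636898-87681897 (45 kb) began 0.919 kb past the start and took in 93.9% of the body. Neither domain shared a base with a DMSO domain. The cover of the 500 kb window was 0% and 13.8% in mESCs and 0% and 35.8% in 2CLCs, and with edges moved outwards by 5 kb the 2CLC dTAG start was inside, at -4.08 kb.

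**Figure D4:**
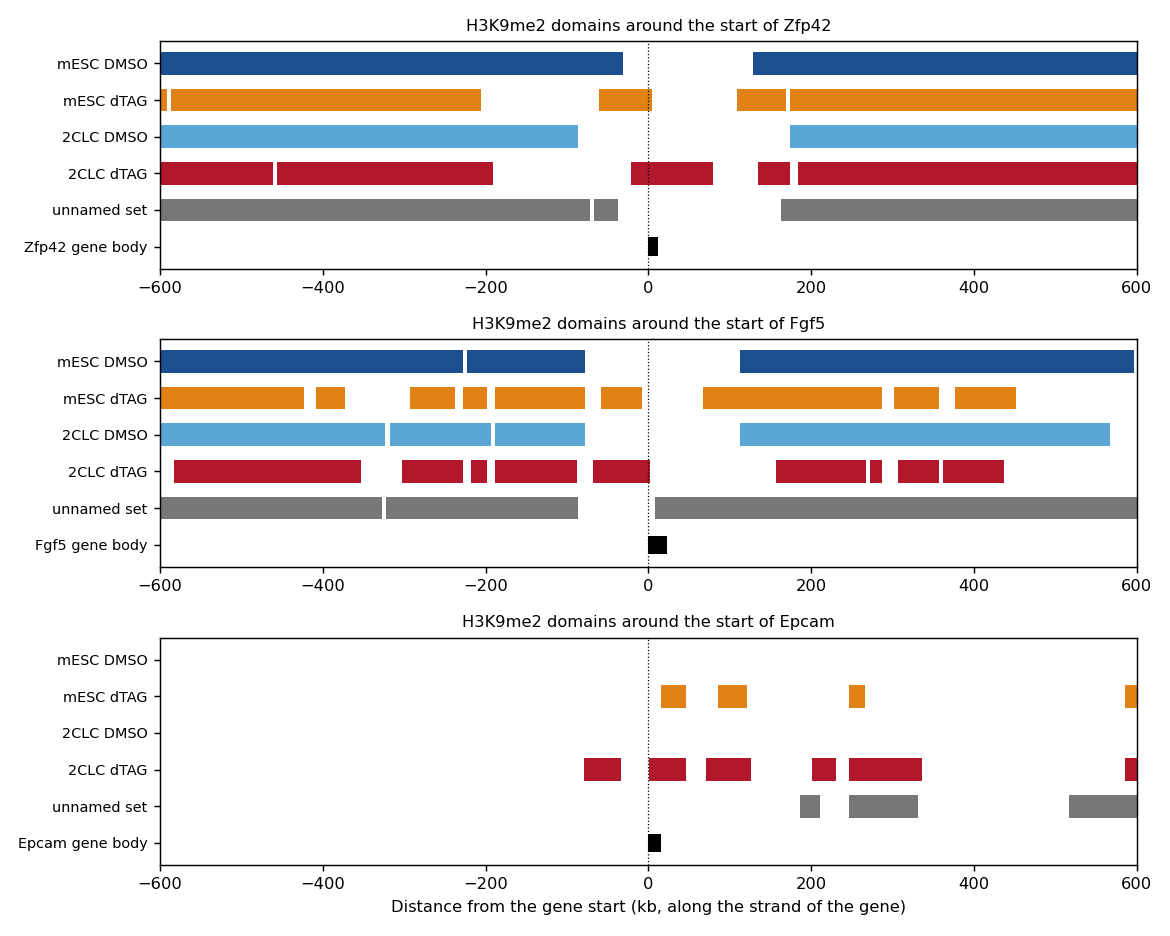
Domains of the 5 lists (colored bars) within 600 kb of the starts of Zfp42, Fgf5 and Epcam, with the gene body in black (x axis, kb from the gene start along the strand of the gene; 1 row of bars per list). The Zfp42 start lies in a gap between wide DMSO domains that a dTAG domain enters in both cell states, the Fgf5 start is reached from upstream, and around Epcam domains appear only in dTAG and in the unnamed set.

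The sequence at the starts is given for these 3 genes, whose starts lay in or next to dTAG domains, and for 3 whose starts hold few CG dinucleotides and yet lay outside all 4 sorted lists: Nanog, Spp1 and Nr5a2. Each is the 300 bases from 250 before the annotated start to 50 from it, read on the strand of the gene from GRCm38.p6, the assembly of mm10. Every CG dinucleotide is in capitals.
Zfp42 (chr8:43306931-43307230, minus strand, 12 CG): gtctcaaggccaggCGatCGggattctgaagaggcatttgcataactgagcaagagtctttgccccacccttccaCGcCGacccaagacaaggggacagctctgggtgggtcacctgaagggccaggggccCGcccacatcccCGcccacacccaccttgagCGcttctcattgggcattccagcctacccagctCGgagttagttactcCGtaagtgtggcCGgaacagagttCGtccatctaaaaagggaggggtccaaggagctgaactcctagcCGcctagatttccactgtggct
Fgf5 (chr5:98253934-98254233, plus strand, 29 CG): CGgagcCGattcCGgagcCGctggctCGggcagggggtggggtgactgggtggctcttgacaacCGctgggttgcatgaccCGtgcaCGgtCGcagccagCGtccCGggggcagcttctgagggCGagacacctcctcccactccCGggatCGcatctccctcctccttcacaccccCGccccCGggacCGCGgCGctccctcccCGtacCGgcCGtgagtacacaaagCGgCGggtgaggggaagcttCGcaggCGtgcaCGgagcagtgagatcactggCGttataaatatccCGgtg
Epcam (chr17:87635729-87636028, plus strand, 11 CG): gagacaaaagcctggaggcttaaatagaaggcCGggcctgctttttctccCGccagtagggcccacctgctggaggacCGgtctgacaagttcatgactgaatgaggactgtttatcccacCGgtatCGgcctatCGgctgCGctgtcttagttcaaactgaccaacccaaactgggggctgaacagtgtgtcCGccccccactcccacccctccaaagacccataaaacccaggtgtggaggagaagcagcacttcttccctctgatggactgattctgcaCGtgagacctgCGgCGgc
Nanog (chr6:122707239-122707538, plus strand, 4 CG): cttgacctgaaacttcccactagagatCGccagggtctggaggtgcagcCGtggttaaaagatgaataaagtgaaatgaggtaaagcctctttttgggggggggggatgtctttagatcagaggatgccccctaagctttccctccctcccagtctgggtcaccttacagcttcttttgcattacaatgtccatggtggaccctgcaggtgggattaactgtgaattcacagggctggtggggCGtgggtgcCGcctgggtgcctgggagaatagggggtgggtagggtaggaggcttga
Spp1 (chr5:104434868-104435167, plus strand, 4 CG): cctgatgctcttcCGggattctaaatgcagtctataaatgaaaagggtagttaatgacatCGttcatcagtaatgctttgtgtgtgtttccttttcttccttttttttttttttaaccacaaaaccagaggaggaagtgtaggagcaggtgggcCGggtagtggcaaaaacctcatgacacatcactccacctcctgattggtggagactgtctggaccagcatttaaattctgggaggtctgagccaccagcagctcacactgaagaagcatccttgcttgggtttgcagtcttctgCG
Nr5a2 (chr1:136960399-136960698, minus strand, 2 CG): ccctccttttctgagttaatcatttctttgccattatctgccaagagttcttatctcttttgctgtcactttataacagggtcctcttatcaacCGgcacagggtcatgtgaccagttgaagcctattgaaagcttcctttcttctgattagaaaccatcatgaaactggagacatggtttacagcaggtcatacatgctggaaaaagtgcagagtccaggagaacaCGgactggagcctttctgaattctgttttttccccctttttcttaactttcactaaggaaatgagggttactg

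The motif counted was the pair of letters CG, which reads the same on both strands. At least 1 CG was found in this window for 35 of 37 members (94.59%) and for 94.83% of the 21748 genes with sequence, and the median count was 11 for members (0 to 40) and 11 for all genes. Over all genes, starts in a domain had a median of 2 or 3 CG and starts outside 15 or 16. Of starts with fewer than 5 CG, 53.64% and 49.65% lay in a domain in mESCs and 53.79% and 52.68% in 2CLCs, whereas of the 9 members in this class 0 did in any of the 4. These 9 are Nanog, Sall4, Nr5a2, Lifr, Fgf4, Tet1, Dnmt3l, Spp1 and Lefty1. A RefSeq start was at hand for 29 of 37 members, not including Sall4 and Lefty1. Of these, the annotated starts of Lifr, Fgf4, Tet1, Otx2 and Jarid2 lie more than 1000 bases from the nearest RefSeq start, and their windows may not hold the promoter in use.

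Of starts with 10 or more CG, 6.001% and 10.36% of all genes lay in a domain in mESCs and 7.581% and 12.97% in 2CLCs, and of the 20 members in this class 0 and 1, and 0 and 2. Zfp42 and Fgf5, the members that entered, are both in it. The 500 kb windows around member starts had a median GC content of 45.73%, a repeat-masked share of 30.65% and 6 gene starts, beside 44.29%, 30.78% and 9 for all genes. Windows around Zfp42 and Fgf5 had a GC content of 40.6% and 41.5%, the former being the lowest among the members. Members that did not enter had similar values, with 41.49% for Spp1, 41.7% for Tet2 and 42.11% for Klf5.

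**Figure D5:**
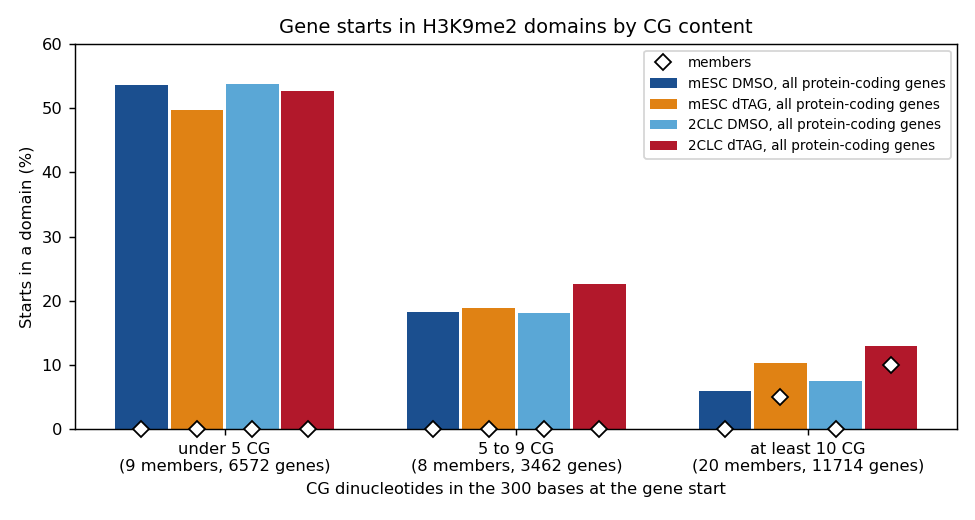
Share of starts in a domain (y axis, percent) by the number of CG dinucleotides in the 300 bases at the start (x axis, 3 classes), for all protein-coding genes with sequence (bars, 1 per sorted list) and for the members (diamonds). All 9 members with fewer than 5 CG lie at 0, where the bars stand between 49.65% and 53.79%. Of these 9, Lifr, Fgf4 and Tet1 have annotated starts more than 1000 bases from the nearest RefSeq start. Sall4 and Lefty1 had no RefSeq start at hand, so the class of these members is less certain.

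The transcription factors at the core of the network stayed outside domains in every sorted list but differed in how the nearest domain moved. Pou5f1, which encodes OCT4, was 589 kb from a domain in mESC DMSO and 76.0 kb in mESC dTAG, and 114 kb and 60.95 kb in 2CLCs. The dTAG domains lay past the start on the 3′ side of the gene, shared 50 kb with each other and had no base in DMSO domains. Nanog, in contrast, stood at 189 kb in mESC DMSO, mESC dTAG and 2CLC dTAG and at 184 kb in 2CLC DMSO. Esrrb, an orphan nuclear receptor of the naive network, stood at 939 kb in 3 lists and at 781 kb in 2CLC dTAG, which made it the member that kept farthest from any domain.

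Sall4, a zinc finger partner of OCT4, moved from 2150 kb in mESC DMSO to 629.8 kb in mESC dTAG, and from 2580 kb to 575 kb in 2CLCs. Klf2, a KLF factor of the naive network, was 449 kb away in mESC DMSO and 71.1 kb in mESC dTAG, and 459 kb and 76.1 kb in 2CLCs. Utf1, a chromatin-bound factor of undifferentiated cells, was 246 kb and 60.7 kb away in mESCs and 261 kb and 60.7 kb in 2CLCs. All 3 thus had nearer domains in dTAG in both cell states, and in each case the mESC and 2CLC dTAG domains overlapped and had no DMSO counterpart.

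Klf4 and Klf5, which can act in place of one another and of Klf2 in the network, went the other way. Klf4 was 162 kb from a domain in mESC DMSO and 327 kb in mESC dTAG, and 77.1 kb and 317 kb in 2CLCs. For Klf5 the distances were 77.3 kb and 412 kb in mESCs, and 117 kb and 207 kb in 2CLCs. Here the nearest dTAG domains lay wholly within DMSO domains, and the nearer part of the DMSO domain or, for Klf4 in 2CLCs, the whole nearest DMSO domain of 25 kb was absent from the dTAG list. The domain share of the 500 kb window was 17.6% and 0% in mESCs and 23.6% and 0% in 2CLCs for Klf4, and for Klf5 it was 34.5% and 0% in mESCs and 26.5% and 8.54% in 2CLCs.

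Tfcp2l1, a LIF-responsive factor that upholds the naive state, lay 328 kb from a 5910 kb domain in mESC DMSO and 303 kb from a domain in mESC dTAG, with 333 kb and 157 kb in 2CLCs. Prdm14, a repressor of FGF signaling and of DNA methyltransferases, was 497 kb and 298 kb away in mESCs and 283 kb and 298 kb in 2CLCs. Nr5a2, a nuclear receptor that can activate Pou5f1, was 139.6 kb and 175 kb away in mESCs and 179.6 kb and 140.4 kb in 2CLCs. Mycn, a MYC family factor for growth, was 34.8 kb and 275 kb away in mESCs and 229.8 kb and 44.8 kb in 2CLCs. For Prdm14, Nr5a2 and Mycn the change from DMSO to dTAG therefore had opposite signs in the 2 cell states, a difference that could not be tested.

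Of the LIF signal, Lifr, the receptor for LIF, was 143 kb from a domain in mESC DMSO and 187 kb in each of the other 3 lists. Stat3, the transcription factor that the receptor activates, was 1005 kb and 265 kb away in mESCs and 1040 kb and 265 kb in 2CLCs. The window around Lifr had a cover of 31% and 11.4% in mESCs, while that around Stat3 held no domain in any sorted list.

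Among the 9 other genes associated with pluripotent cells, the nearest domain came nearer for 7 in mESCs (background 63.8%) and 8 in 2CLCs (background 72.4%). Lin28a had the largest change in distance among the members in both cell states. It stood at 3804 kb in both DMSO lists, at 1161 kb in mESC dTAG and at 5.60 kb in 2CLC dTAG, where a 30 kb domain lay before the start. Tdgf1, the NODAL co-receptor Cripto, was 610.3 kb and 10.3 kb away in mESCs and 725 kb and 15.3 kb in 2CLCs. Like Epcam, both came within 20 kb of a dTAG domain without their starts being covered, Lin28a in 2CLCs only.

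Cdh1, the adhesion molecule E-cadherin, was 1470 kb from a domain in both DMSO lists, 90.5 kb in mESC dTAG and 70.5 kb in 2CLC dTAG. Its mESC dTAG domain of 95 kb lay wholly inside its 2CLC dTAG domain of 115 kb. Tcl1, a cofactor of AKT, was 846 kb and 59.2 kb away in mESCs and 1041 kb and 54.2 kb in 2CLCs. Dppa5a, an RNA-binding protein of pluripotent cells, was 423 kb and 183 kb away in mESCs and 283 kb and 172 kb in 2CLCs.

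Dppa3 (Stella), which protects maternal DNA methylation in the zygote and shares its domain-free interval with Nanog, stayed between 265 and 269.8 kb in all 4 lists. Trim71, a ubiquitin ligase and RNA-binding protein, was 238 kb and 297 kb away in mESCs, and 1153 kb and 302 kb in 2CLCs. Fgf4, the ligand that starts ERK signaling on exit, was 492 kb and 452 kb away in mESCs, and 1988 kb and 478 kb in 2CLCs. In the 2CLC DMSO list the Fgf4 start lay beyond the last domain of chromosome 7, so its interval is open on that side.

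Of the DNA methylation and PRC2 genes, Tet2 was the only member whose body touched a domain in mESC DMSO. That domain, chr3:133369334-133464333, ended within the 3′ end of the gene. The Tet2 start was 39.2 kb from a domain in both DMSO lists and 85.8 kb in both dTAG lists, and the cover of its window was 61.2% and 31% in mESCs and 58.2% and 34% in 2CLCs. Its paralog Tet1, also a dioxygenase that oxidises methylcytosine, was 681 kb and 186 kb away in mESCs and 596 kb and 161 kb in 2CLCs. The domains thus lay farther from Tet2 and nearer to Tet1 in dTAG in both cell states.

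Dnmt3l, a catalytically inactive cofactor of the de novo DNA methyltransferases, was 77.1 kb from a domain in mESC DMSO, 648 kb in 2CLC DMSO and 12.05 kb in both dTAG lists. Dnmt3b, a de novo methyltransferase that rises on exit, stayed between 348 and 368 kb in all 4. Jarid2, a subunit that helps recruit PRC2, was 1583 kb and 273 kb away in mESCs and 1248 kb and 273 kb in 2CLCs, where the dTAG domain was the same 45 kb in both cell states and lay past the 3′ end of the gene.

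The early exit genes had nearer domains in dTAG in 6 of 8 cases in mESCs (background 63.8%) and in all 7 that stayed outside in 2CLCs (background 72.4%). Otx2, the homeobox factor that drives the exit from the naive state, was 567 kb and 628 kb away in mESCs and 573 kb and 477 kb in 2CLCs. Gbx2, a homeobox factor downstream of STAT3, stood at 701 kb in 3 lists and at 511 kb in 2CLC dTAG. Etv5, an ETS factor of FGF signaling, was 145 kb and 135 kb away in mESCs and 520.2 kb and 139.8 kb in 2CLCs. None of these 3 came within 100 kb of a domain.

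Spp1, a secreted phosphoprotein, lay like Zfp42 and Fgf5 in a region rich in domains, with 50% and 63% of its window covered in mESCs and 42.8% and 47% in 2CLCs. Its start was 109 kb from a domain in both DMSO lists, 58.96 kb in mESC dTAG and 53.96 kb in 2CLC dTAG. In both dTAG lists Zfp42, Fgf5 and Spp1 had a domain within 60 kb of the start or over it. Of these genes, only Zfp42 in mESCs had one in DMSO. Epcam, Tdgf1, Tcl1 and Dnmt3l also had one within 60 kb in both dTAG lists, with less of their windows covered. Shares over all genes were counted at 50 and 75 kb and not at 60 kb. Within 50 kb or in a domain were 42.9% of all starts in mESC dTAG and 49.93% in 2CLC dTAG. The member shares were 13.51% and 18.92%. Within 75 kb the shares were 49.3% and 56.85% of all starts, beside 24.32% and 32.43% of the members. Spp1 and Tcl1 lay beyond 50 kb in both dTAG lists. Tet2, with similarly dense surroundings, had 39.2 kb in both DMSO lists and 85.8 kb in both dTAG lists.

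The members of the NODAL pathway, Nodal, Lefty1 and Lefty2, lay in wide domain-free stretches in DMSO. Nodal, the TGF-beta family ligand, was 2172 kb and 693 kb away in mESCs and 853 kb and 577 kb in 2CLCs. Lefty1 and Lefty2, secreted inhibitors of NODAL that sit side by side on chromosome 1, were 2565 and 2607 kb away in mESC DMSO and 295 and 253 kb in mESC dTAG. In 2CLCs they were 1220 and 1262 kb away in DMSO and 84.95 and 127 kb in dTAG. The pair shares its neighbouring domains, so their values are not separate observations.

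A wider list of 48 genes of the same pathways was set beside the members. Starts in a domain numbered 2 of 48 in mESC DMSO (4.167%) and 3 in each of the other lists (6.25%), all below the shares of all genes given above, and 40 of 48 (83.33%) were never in one. Of the LIF and STAT3 genes 0 of 6 were in a domain in any sorted list, and of the DNA methylation genes 0 of 4. Of 10 FGF and ERK genes, the inhibitor Spry2 lay at -60.8 kb and -70.8 kb in 2CLCs. Of 10 NODAL and SMAD genes, Acvr2a, an activin receptor, lay at -83.8 kb and -8.80 kb in 2CLCs, and Smad4, the shared SMAD, at -5.74 kb in mESC dTAG.

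Of the 4 WNT and adhesion genes, Gsk3b, the kinase that marks beta-catenin for degradation, lay at -15.9 kb in mESC dTAG. Of 14 other network and formative factors, Nr0b1 (-4.47 kb) and Lin28b (-1.46 kb) lay in a domain in mESC DMSO only. Both were less than 1 bin (5 kb) inside. They were 5.531 and 23.55 kb outside in mESC dTAG, and 0.531 and 3.546 kb outside in 2CLC DMSO. No gene of this group was in a domain in either dTAG list. Over all 48, starts that entered domains from DMSO to dTAG numbered 3 in mESCs (background 6.32%) and 1 in 2CLCs (7.52%), and starts that left numbered 2 (5.08%) and 1 (4.25%).

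In the unnamed set, given for its values only, 4 of 37 member starts lay in a domain (Klf4, Nr5a2, Lifr and Tet2), beside 30% of all starts, and 6 of 37 bodies had a base in one, beside 37.3% of all genes. The Klf4 and Tet2 starts were inside by less than the bin width of 5 kb. The annotated Lifr start lies 38958 bases from the nearest RefSeq start, so its place in a domain is less certain. In this set the median distance to the nearest domain was 190 kb for members and 69.8 kb for all genes. The starts of Zfp42, Fgf5 and Epcam were outside, at 37.05, 7.87 and 186 kb, though 65.6% of the Fgf5 body was covered.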

How the data were processed

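H3K9me2 ULI-NChIP and input libraries were aligned by the authors to mm10 with STAR 2.7.10 (multi-mapping reads kept at 1 best location), deduplicated with Picard 2.26.0 and scaled with deepTools 3.5.1. Per the study's methods, domains were seeded and extended on percentiles of the log2 ratio of immunoprecipitated over input signal in overlapping bins. The deposited values used here are the start and end coordinates of these domains (other units, such as counts or log2 ratios, were not used); whether replicates were pooled, and the depth behind each domain, are not given in the sources used here. Domain positions depend on these percentiles, and their part in the distances was not tested.

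Starts (5′ end of the annotated gene), bodies and windows of 500 kb were taken from GENCODE M21 and intersected with each list using Python 3.11.15 and numpy 2.4.6; 0 domains passed a chromosome end. The interval code was tested on simulated domains. Distances are to the nearest domain edge, nearer or farther means a change above 5 kb, and counts are set beside 21755 protein-coding genes. There is 1 list per condition, so no test was made. By the rule for named genes, values in every list were due for members in a domain and for the 5 nearest to and 5 farthest from one; those of the other members were added after they had been seen. Pathway genes are named where their start is in a domain, except some that are not reported here. The alternatives tried numbered 9 (other widths, edges, windows and definitions of the start or body). The members and gene lists were chosen with earlier results of these data known.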

Additional observations from a re-analysis of the deposited data

Results flagged for a closer look

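For 5 members the change in distance to the nearest domain from DMSO to dTAG had opposite signs in mESCs and 2CLCs. It was -198.9 kb in mESCs and 15 kb in 2CLCs for Prdm14, 35 and -39.16 kb for Nr5a2, 240 and -185 kb for Mycn, 59.2 and -850.8 kb for Trim71, and 60.47 and -95.47 kb for Otx2. Positive values mean a farther domain in dTAG. With 1 list per condition these differences were not tested.

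The comparisons leave out the unnamed set, in which 4 member starts lay in a domain although they were outside all sorted lists. The signed distances were -2.131 kb for Klf4, -9.848 kb for Nr5a2, -33.41 kb for Lifr and -0.054 kb for Tet2. Klf4 and Tet2 were thus inside by less than the bin width of 5 kb. The annotated Lifr start lies 38958 bases from the nearest RefSeq start, which is more than its depth in the domain. Whether the Lifr promoter in use lies in that domain is therefore uncertain. The set has no control list of its own.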

How the results depend on the processing

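Joining domains at most 10 kb apart, or using any annotated transcript start or a promoter window of 2.5 kb before to 0.5 kb after the start, left every summary within 1.5 times its value, and joining moved none of the 148 single distances by more than 1 bin. With edges moved inwards by 5 kb, 0 starts lay in a domain in mESC dTAG and 1 in 2CLC dTAG, 0 and 1 had entered, and bodies with a base in a domain numbered 0 in mESC DMSO and 0 in mESC dTAG; Zfp42 in mESC dTAG came to 0.972 kb and Fgf5 in 2CLC dTAG to 3.022 kb outside. With edges moved outwards by 5 kb, bodies numbered 3 in mESC dTAG and 1 in 2CLC DMSO, the median window cover in mESC dTAG was 0.3722%, and Epcam in 2CLC dTAG lay at -4.082 kb. Asking for 50% of the body gave 0 in mESC DMSO and 0 in mESC dTAG. With only domains of at least 50 kb, the median distance in 2CLC dTAG was 298 kb, its median window cover 0%, and 69 of 148 single distances moved by more than 1 bin. The number of members with a nearer domain in dTAG, recomputed under 4 settings added after seeing the data, ranged from 18 to 24 in mESCs and from 20 to 28 in 2CLCs, and the lowest values came with domains of at least 50 kb. Windows of 1000 kb gave median covers of 2.5% in mESC DMSO, 9% in mESC dTAG and 16.23% in 2CLC dTAG, and windows of 100 kb gave 0% in 2CLC dTAG. These shifts follow from how each alternative is built. No paired analysis was possible because a domain list holds no value for a single replicate, and no replicate could be left out for the same reason. Depth is unknown.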
